A study of Homo sapiens with 18 samples.

Results

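The 9 replication-independent histone variant genes H1-10, H2AZ1, H2AZ2, H2AX, H2AJ, MACROH2A1, MACROH2A2, H3-3A and H3-3B were examined as a family in A2780 and Acis cells. They were taken by gene symbol from a table of 23622 genes, and all 9 had a row and passed the filter on low counts. A2780 is a cisplatin-sensitive ovarian carcinoma line, and Acis is its resistant derivative, which was exposed to 1 µM cisplatin every few passages in culture to keep the resistance. RNA-seq was performed on A2780 control, A2780 cisplatin, Acis control and Acis cisplatin cells, where cisplatin means 200 µM for 3 h, with 3 replicates in each of the 4 groups. Resistance is represented by 1 derived line. ATAC-seq, which marks accessible chromatin by transposase insertion, gave 1 list of peaks for each of the 4 conditions.

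Most histone genes are transcribed during S phase only, and their mRNAs lack a poly(A) tail and end in a conserved stem-loop that is processed in step with DNA replication. Replication-independent variants are instead made throughout the cell cycle, mostly from polyadenylated, spliced mRNAs, and are deposited by dedicated chaperones. H3.3 (encoded by H3-3A and H3-3B) is placed at active genes and regulatory elements, H2A.Z (H2AZ1 and H2AZ2) at promoters, macroH2A (MACROH2A1 and MACROH2A2) mainly in repressed chromatin, and H2A.X (H2AX) is phosphorylated around DNA breaks. H1-10 encodes a linker histone and H2AJ an H2A variant.

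The libraries held 4130644 to 5072216 counts on genes. Between replicates, the mean squared difference of counts was 0.745 to 1.515 times that of counting noise. All pairs of A2780 control libraries fell below this noise. The methods describe wells seeded in triplicate for each condition, so p-values measure the spread between wells of 1 line. The cell line identity was compared with marker genes. VIM, a mesenchymal filament gene, had a mean of 1783 to 2006 normalized counts in the 4 groups, and the epithelial genes KRT18 (25.5 to 145.9), KRT8 (4.05 to 17.2) and EPCAM (0.647 to 4.17) were lower. PAX8, CDH1, MUC16 and WT1 were not analysed here, nor were PTPRC and PECAM1, which mark leukocytes and endothelium. COL1A1, a fibroblast collagen that these lines can express, had 843 normalized counts in A2780 control and 16.4 in Acis control, and DCN, another fibroblast gene, had 46.2 and 3.65. The part of this in the differences between the lines was not tested.

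The 3′ ends and promoters of the genes were read first. The stem-loop (its paired arms in capitals, the loop in lower case) was found after the stop codon of 1 of the 9 members, H2AX, and of 55 of 55 replication-dependent histone genes of the table. It is shown for H2AX and for 3 replication-dependent genes, in GRCh38.
H2AX, chr11:119094898-119094913, minus strand: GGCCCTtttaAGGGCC
H1-3, chr6:26234217-26234232, minus strand: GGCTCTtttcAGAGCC
H2AC16, chr6:27865778-27865793, plus strand: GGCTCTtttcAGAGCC
H2BC11, chr6:27132321-27132336, minus strand: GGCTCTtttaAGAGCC
The H2AX stem-loop lay 50 bases after the stop codon. H2AX is known to be made as both kinds of mRNA, and the counts do not separate them.

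The 250 bases before the start of transcription (RefSeq, GRCh38.p14) were searched on both strands for short motifs, spelled out with their counts. All 9 members matched an entry at their annotated start. CCAAT was found in 6 of 9 members (H2AZ1, H2AZ2, H2AX, H2AJ, H3-3A and H3-3B) and in 32% of 35116 promoters. TATAAA was found in 4 of 9 (H1-10, H2AZ1, H2AX and H3-3B) and in 10.7% of promoters. GGGCGG was found in 4 of 9 and in 42.6% of promoters. The cyclic AMP response element TGACGTCA was found in none of the 9 and in 1.65% of promoters. Its first part TGACG was found in 3 of 9 and in 21.2% of promoters. The AP-1 motif TGANTCA was found in none of the 9 and in 6.57% of promoters. An E2F motif (TTTCCCGC or TTTGGCGC) was found in none of the 9 and in 1.93% of promoters. GGGGCGGGG, which contains GGGCGG, was found in 2 of 9 and in 15.1% of promoters. The promoters of 4 of the 6 members that rose in A2780 are shown. CCAAT (or ATTGG on the other strand) and TATAAA are in capitals.
H2AJ, chr12:14774155-14774404, plus strand: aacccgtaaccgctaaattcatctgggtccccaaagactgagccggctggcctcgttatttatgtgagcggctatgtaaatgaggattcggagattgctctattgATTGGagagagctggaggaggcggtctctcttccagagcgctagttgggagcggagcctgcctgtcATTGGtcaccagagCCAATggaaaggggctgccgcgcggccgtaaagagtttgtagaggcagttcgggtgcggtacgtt
H2AX, chr11:119095466-119095715, minus strand: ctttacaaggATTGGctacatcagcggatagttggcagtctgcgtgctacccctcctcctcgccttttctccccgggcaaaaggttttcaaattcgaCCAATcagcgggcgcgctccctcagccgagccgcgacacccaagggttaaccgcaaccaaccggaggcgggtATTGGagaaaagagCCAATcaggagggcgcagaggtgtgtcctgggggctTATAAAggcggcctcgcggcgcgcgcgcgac
H2AZ1, chr4:99950276-99950525, minus strand: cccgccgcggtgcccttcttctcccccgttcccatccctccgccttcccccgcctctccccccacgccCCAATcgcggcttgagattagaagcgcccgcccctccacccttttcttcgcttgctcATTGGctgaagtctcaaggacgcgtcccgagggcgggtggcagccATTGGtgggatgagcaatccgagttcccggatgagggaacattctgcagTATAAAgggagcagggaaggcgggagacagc
H3-3B, chr17:75779780-75780029, minus strand: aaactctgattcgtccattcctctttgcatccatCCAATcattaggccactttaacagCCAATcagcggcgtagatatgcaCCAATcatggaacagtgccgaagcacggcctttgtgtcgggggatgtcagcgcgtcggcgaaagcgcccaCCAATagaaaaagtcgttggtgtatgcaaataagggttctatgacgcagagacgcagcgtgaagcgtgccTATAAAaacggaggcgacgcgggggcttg
H2AX and H3-3B held 4 CCAAT matches each, and H2AZ1 and H2AJ held 3. Of the members not shown, H2AZ2, which fell in A2780, also held 4. H3-3A and H1-10, which rose, held 1 and 0. A match describes the letters and does not show binding.

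After cisplatin, 6 of the 9 members rose in A2780 cells and 2 fell. The members that rose were H2AJ, H3-3A, H1-10, H3-3B, H2AX and H2AZ1, and those that fell were MACROH2A1 and H2AZ2. At an adjusted p under 0.05, 21.2% of 15760 tested genes rose and 28.2% fell. H2AJ alone also passed an absolute log2 fold change of 1, which 5.62% of all genes passed. The median log2 fold change was 0.20 over the members and -0.01 over all tested genes.

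**Figure D1:**
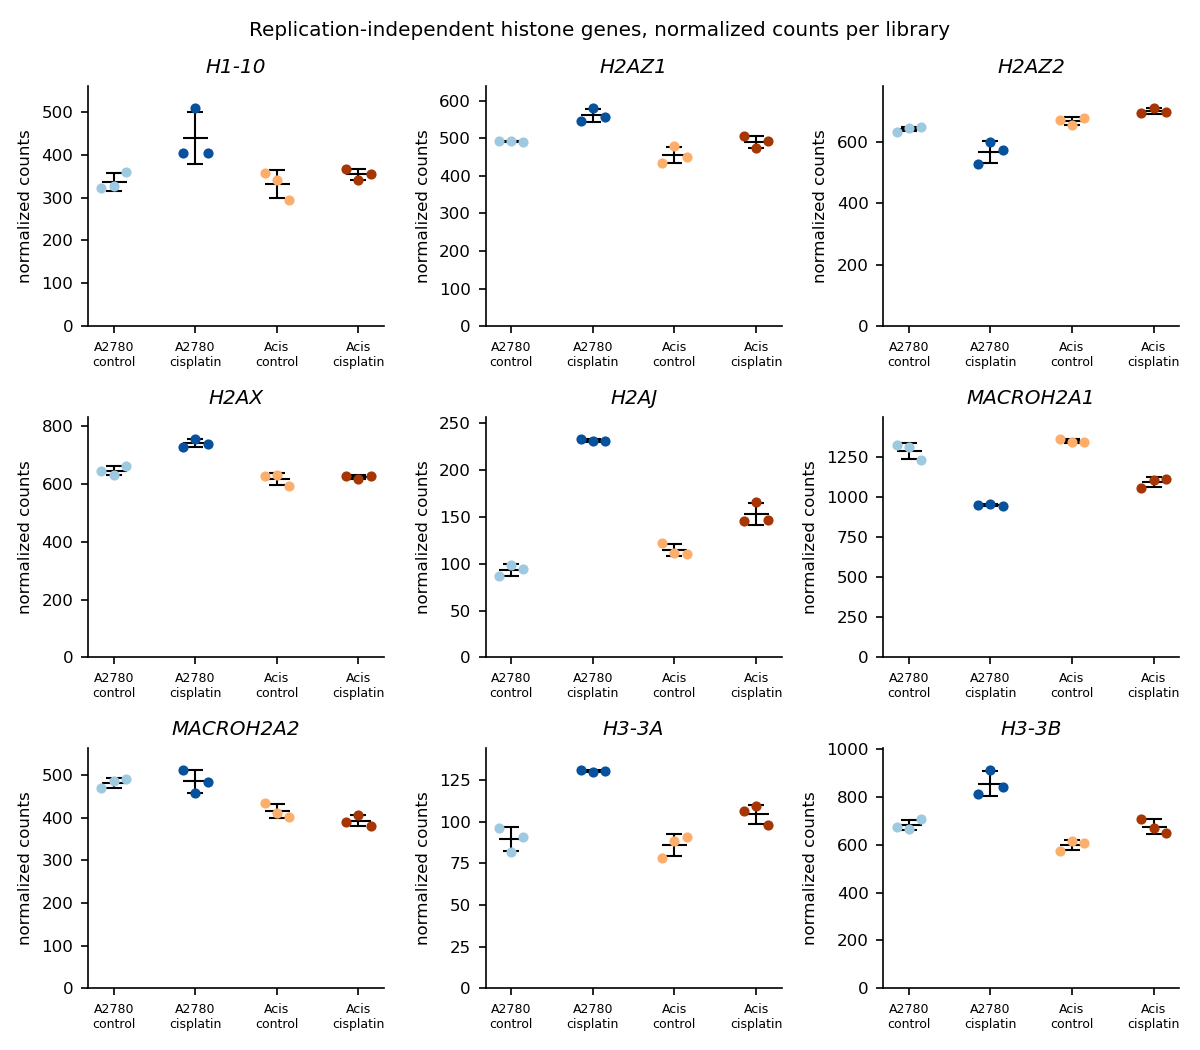
Normalized counts of the 9 genes (y axis, from 0) in the 12 libraries, by group on the x axis; points are libraries, and bars are the mean and SD of 3 libraries. H2AJ sits between 230.7 and 233.4 in A2780 cisplatin libraries and between 86.7 and 99.0 in A2780 control libraries.

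H2AJ (ENSG00000246705, chromosome 12, 14774405 to 14778002, plus strand) was the member that changed most. Its normalized counts were 86.7, 99.0 and 93.9 in A2780 control and 233.4, 231.3 and 230.7 in A2780 cisplatin libraries. The groups did not overlap, and H2AJ rose 2.49-fold (log2 fold change 1.31 with a standard error of 0.10, edgeR adjusted p = 6.95e-13). In Acis cells it had 122.0, 111.8 and 110.5 normalized counts without treatment and 145.8, 166.3 and 146.3 with cisplatin. All treated libraries were above all untreated ones, and H2AJ rose by a smaller log2 fold change of 0.41 (standard error 0.10, edgeR adjusted p = 0.00112). The difference between the lines was -0.90 on the log2 scale (standard error 0.15, edgeR adjusted p for the interaction = 1.08e-05).

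H3.3 is encoded by a pair of genes whose proteins are identical at 136 of 136 positions, while their coding bases are 78.6% identical. H3-3A (ENSG00000163041, chromosome 1, 226061851 to 226072019, plus strand) had 96.0, 81.7 and 90.7 normalized counts in A2780 control and 131.2, 129.7 and 130.6 in A2780 cisplatin libraries. The treated libraries were all higher, with a log2 fold change of 0.54 (standard error 0.11, edgeR adjusted p = 2.63e-05). In Acis cells the means were 86.0 ± 6.63 and 104.6 ± 5.75 normalized counts (SD, n = 3), and the log2 fold change of 0.28 did not pass (edgeR adjusted p = 0.0807). Of the 996 windows of 75 bases in the main H3-3A transcript, 91.2% have an exact copy at another place in the genome. Reads from such windows cannot be assigned to 1 place, so the H3-3A level and its fold changes are uncertain. The share of such windows was 4.98% for H3-3B, 4.4% for H2AZ2, 1.64% for H2AZ1 and 0 for the other 5 members.

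H3-3B (ENSG00000132475, chromosome 17, 75776434 to 75785893, minus strand) had 673, 665 and 705 normalized counts in A2780 control and 811, 913 and 842 in A2780 cisplatin libraries. The groups did not overlap, and H3-3B rose by a log2 fold change of 0.33 (standard error 0.05, edgeR adjusted p = 1.35e-06). In Acis cells it went from 598 ± 21.5 to 676 ± 29.6 normalized counts (SD, n = 3). This log2 fold change of 0.18 passed the test (edgeR adjusted p = 0.0126), but not with DESeq2 (adjusted p = 0.103), with the most alike replicates merged (edgeR adjusted p = 0.0506), without Acis cisplatin replicate 1 (0.0948) or without Acis control replicate 1 (0.0678).

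H1-10 (ENSG00000184897, chromosome 3, 129314771 to 129316286, minus strand) had 322, 326 and 361 normalized counts in A2780 control and 404, 509 and 404 in A2780 cisplatin libraries. All treated libraries were higher, replicate 2 most of all, and the log2 fold change was 0.39 (standard error 0.08, edgeR adjusted p = 0.000137). Without that replicate it was 0.27 (edgeR adjusted p = 0.00226). In Acis cells the means were 331 ± 32.1 and 354 ± 13.5 normalized counts (SD, n = 3), with overlapping groups and a log2 fold change of 0.09 (95% interval -0.07 to 0.26, edgeR adjusted p = 0.489).

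H2AX (ENSG00000188486, chromosome 11, 119093874 to 119095465, minus strand), whose product marks DNA breaks when phosphorylated, had 645, 632 and 662 normalized counts in A2780 control and 729, 757 and 740.3 in A2780 cisplatin libraries. The groups did not overlap, and the log2 fold change was 0.20 (standard error 0.04, edgeR adjusted p = 0.000178). In Acis cells the means were 618 ± 19.9 and 624 ± 6.99 normalized counts (SD, n = 3), and the log2 fold change was 0.01 (95% interval -0.08 to 0.11, edgeR adjusted p = 0.899). The difference between the lines was -0.19 on the log2 scale (edgeR adjusted p = 0.0273). It was lost with DESeq2 (adjusted p = 0.15), with the most alike replicates merged (edgeR adjusted p = 0.0816), with no filter on low counts (0.0787), and without 6 of the 12 libraries in turn (edgeR adjusted p of 0.0541 to 0.0734), which were replicates 1 and 2 of A2780 control, replicate 2 of A2780 cisplatin, replicates 1 and 2 of Acis control and replicate 2 of Acis cisplatin.

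The proteins of the H2A.Z genes differ at 3 of 128 positions, and their mRNAs moved apart in A2780 cells. H2AZ1 (ENSG00000164032, chromosome 4, 99948086 to 99950355, minus strand) had 492, 493 and 489.7 normalized counts in A2780 control and 546, 581 and 556 in A2780 cisplatin libraries, a log2 fold change of 0.19 (standard error 0.05, edgeR adjusted p = 0.00158). H2AZ2 (ENSG00000105968, chromosome 7, 44826791 to 44848087, minus strand) had 632, 643 and 648 normalized counts in A2780 control and 528, 597 and 571 in A2780 cisplatin libraries, and fell by 0.18 on the log2 scale (standard error 0.05, edgeR adjusted p = 0.00175). Neither gene's groups overlapped. With total counts as the library size, the median over all genes moved from -0.01 to 0.10, and the H2AZ2 value was -0.06 (edgeR adjusted p = 0.251).

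In Acis cells, H2AZ1 had a log2 fold change of 0.11 (95% interval 0.001 to 0.217, edgeR adjusted p = 0.151) and H2AZ2 of 0.07 (95% interval -0.02 to 0.16, edgeR adjusted p = 0.311), and neither passed. The difference between the lines for H2AZ2 was 0.25 on the log2 scale (standard error 0.07, edgeR adjusted p = 0.00653), and it did not pass with DESeq2 (adjusted p = 0.0998).

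MACROH2A1 (ENSG00000113648, chromosome 5, 135334381 to 135399914, minus strand), the more abundant macroH2A gene, fell in both lines. Its normalized counts were 1320.4, 1308 and 1229 in A2780 control and 951, 955 and 945 in A2780 cisplatin libraries. The groups did not overlap, and the log2 fold change was -0.44 (standard error 0.04, edgeR adjusted p = 1.1e-10). In Acis cells it had 1360.2, 1339 and 1337 normalized counts without and 1055, 1106 and 1112 with cisplatin, a log2 fold change of -0.30 (standard error 0.04, edgeR adjusted p = 3.02e-07). MACROH2A2 (ENSG00000099284, chromosome 10, 70052544 to 70112282, plus strand) had overlapping groups in both lines, with a log2 fold change of 0.01 in A2780 (95% interval -0.09 to 0.12, edgeR adjusted p = 0.878) and -0.08 in Acis cells (95% interval -0.20 to 0.03, edgeR adjusted p = 0.353). With total counts as the library size, MACROH2A2 passed in A2780 (log2 fold change 0.13, edgeR adjusted p = 0.0354), close to the shift of all genes under that scaling.

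**Figure D2:**
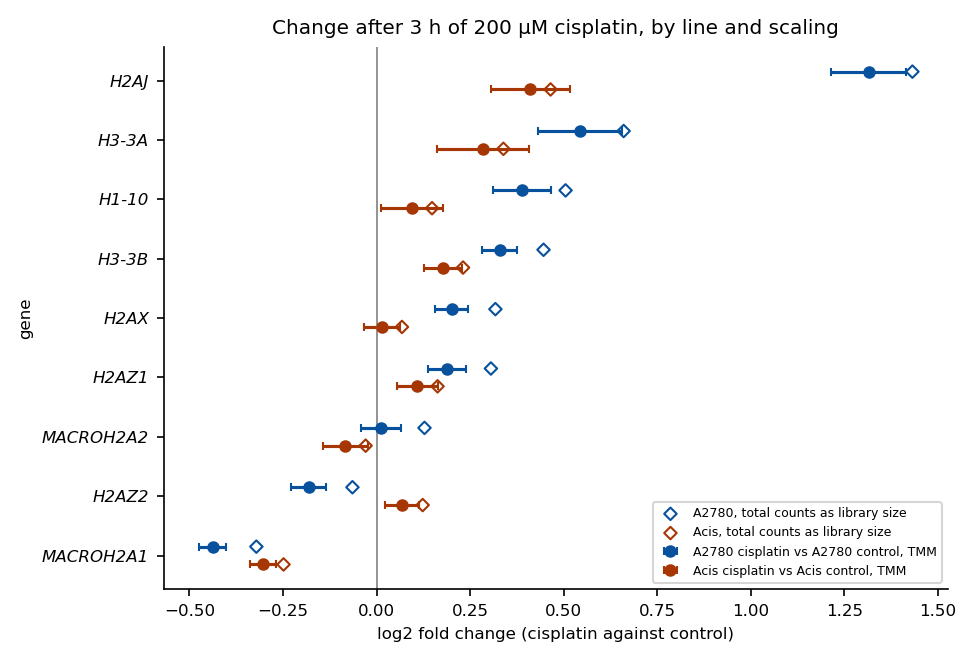
Log2 fold changes after cisplatin (x axis) for each gene (y axis) in A2780 (blue) and Acis cells (brown); filled points are TMM-scaled with their standard error, and open diamonds use total counts as the library size. H2AJ lies at 1.31 in A2780 and 0.41 in Acis cells, and MACROH2A1 lies below 0 in both.

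In Acis cells as a whole, 2 members rose (H2AJ and H3-3B) and 1 fell (MACROH2A1), beside 9.35% and 12.4% of all tested genes, and no member passed the fold threshold. The median over the members was 0.09 and that over all genes 0.01. H3-3A and H2AZ2 were higher in every treated than in every untreated Acis library without passing the test. The share of all tested genes whose groups separate in this way was not counted in any comparison. With total counts as the library size, 6 members passed, with H2AZ1, H2AZ2 and H3-3A (edgeR adjusted p of 0.0191, 0.0439 and 0.0292) added to these 3. Under that scaling, 3757 of 15760 tested genes passed in Acis cells, 2346 of them as higher. The cisplatin effect differed between the lines for 3 members (H2AJ and H2AX lower in Acis, H2AZ2 higher), beside 5.48% of all genes lower and 13.4% higher.

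Before treatment, 3 of the 9 members differed between the lines. In Acis control cells, 1 member was higher than in A2780 control cells and 2 were lower, beside 28.2% and 30.6% of all tested genes. MACROH2A2 had 416 ± 17.2 normalized counts in Acis and 481 ± 11.6 in A2780 control cells (SD, n = 3). The log2 fold change was -0.21 (standard error 0.06, edgeR adjusted p = 0.00148). H3-3B was lower by a log2 fold change of -0.19 (edgeR adjusted p = 0.00265). H2AJ was higher by 0.30 (edgeR adjusted p = 0.0189), a call that was lost with DESeq2 (adjusted p = 0.0702), without A2780 control replicate 1 (edgeR adjusted p = 0.0952) and without Acis control replicate 1 (0.0933).

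After cisplatin, all 9 members differed between the lines, with 7 lower and 2 higher in Acis, beside 31.2% and 31.8% of all tested genes. H2AJ had 153 ± 11.7 normalized counts in Acis and 232 ± 1.41 in A2780 cisplatin cells (SD, n = 3). The log2 fold change was -0.60 (edgeR adjusted p = 4.74e-08). The members higher in Acis were H2AZ2 (log2 fold change 0.31, edgeR adjusted p = 1.16e-06) and MACROH2A1 (0.20, edgeR adjusted p = 3.4e-05). These comparisons share their libraries with those described before. A level per cell and the share of cells that hold the mRNA cannot be told apart in bulk RNA.

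Levels were compared between genes as normalized counts per kb of the main GENCODE transcript. All exonic bases of a gene can far exceed this length. They number 17013 against 1917 for MACROH2A1, 2270 against 866 for H2AZ1 and 3332 against 620 for H2AJ. For H2AX both are 1592. The order is thus given for the main transcript length only, and it depends on the length used. In A2780 control cells the order was MACROH2A1 (671 ± 25.9), H2AZ1 (568 ± 2.06), H2AX (406 ± 9.42), H3-3B (252 ± 7.83), MACROH2A2 (249 ± 6.02), H1-10 (222 ± 14.1), H2AZ2 (212 ± 2.61), H2AJ (150.3 ± 9.95) and H3-3A (83.6 ± 6.77; SD, n = 3). The libraries of H3-3B and MACROH2A2 overlapped, as did those of H1-10 and H2AZ2. The place of H3-3A is uncertain, since most of its windows have an exact copy elsewhere in the genome. After cisplatin, H2AZ1 led in A2780 cells with 647 ± 20.8 normalized counts per kb and H2AJ moved from rank 8 to rank 4 with 374 ± 2.27 (SD, n = 3). In Acis cisplatin cells MACROH2A1 and H2AZ1 overlapped at the top, and H2AJ was rank 5 at 246 ± 18.9 normalized counts per kb (SD, n = 3), overlapping with H3-3B and H1-10.

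Duplicate reads were removed by position, and counts were set against the number of 75-base start positions of each main transcript. The mean count over the libraries was a median of 26.8% of these positions over the 9 members and 6.09% over all tested genes. It reached 3442% in 1 gene, so the share describes density and is not a share of an upper limit. The highest count of a library was 75.8% of these positions for H2AZ1, 51.5% for H2AX, 45.6% for H2AJ and 36.5% for H1-10. As a share of all exonic bases of the gene it was 26.4%, 49.1%, 7.47% and 34.7%. The part of duplicate removal in the sizes of the changes was not tested.

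The balance within pairs was measured as the log2 ratio of counts per kb in each library. The ratio of H2AZ1 to H2AZ2 was 1.42 ± 0.02 in A2780 control and 1.79 ± 0.05 in A2780 cisplatin cells (SD, n = 3), with no overlap. It was 1.25 ± 0.09 and 1.29 ± 0.07 in Acis cells (SD, n = 3), where the groups overlapped. The ratio of MACROH2A1 to MACROH2A2 was 1.43 ± 0.08 without and 0.98 ± 0.08 with cisplatin in A2780, and 1.71 ± 0.05 and 1.49 ± 0.06 in Acis cells (SD, n = 3), with no overlap in either line. The ratio of H3-3A to H3-3B was -1.59 ± 0.11 and -1.37 ± 0.10 in A2780 cells (SD, n = 3), with overlapping groups. This ratio and its changes are uncertain, since most H3-3A windows have an exact copy elsewhere in the genome. Over 12 comparisons, the smallest two-sided exact permutation p was 0.1, which is the smallest that 3 against 3 can give, and the smallest adjusted p was 0.171, so none could pass 0.05.

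**Figure D3:**
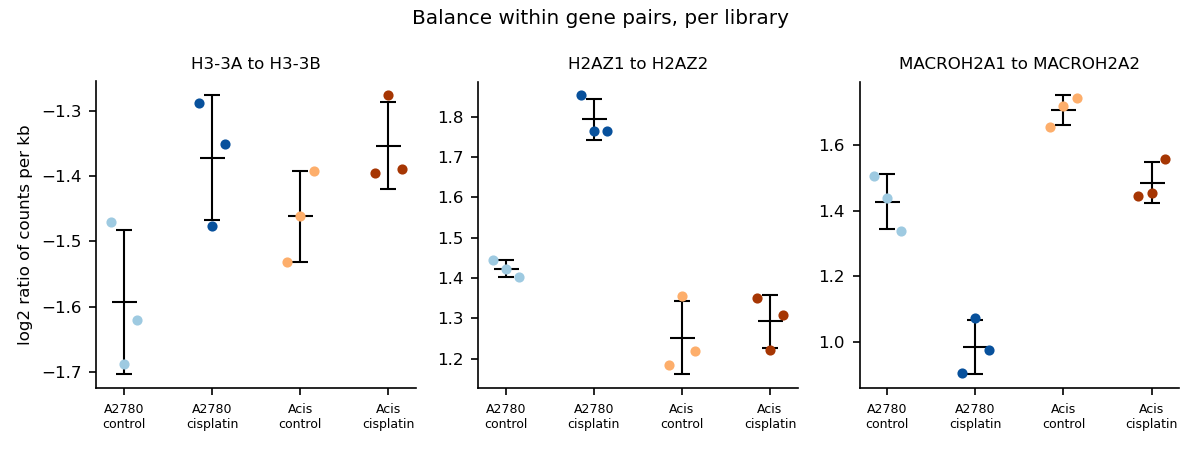
Log2 ratio of counts per kb within each pair of genes (y axis, not starting at 0) per library, by group on the x axis; points are libraries, and bars are the mean and SD of 3. H2AZ1 to H2AZ2 is highest in A2780 cisplatin libraries, at a mean of 1.79.

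Replication-dependent histone genes, which encode the bulk histones of S phase, mostly fell in the same libraries. Of 55 in the table, 52 were tested, and 33 fell and 1 rose in A2780 (median log2 fold change -0.34), while 42 fell and none rose in Acis cells (median -0.53; 10 did not pass). With total counts as the library size, 3 rose in A2780, beside 5302 of 15760 tested genes. H1-3, a linker histone gene, went from 379 ± 19.1 to 142 ± 17.6 normalized counts in A2780 (log2 fold change -1.41, edgeR adjusted p = 2.8e-14) and from 366 ± 7.93 to 120.5 ± 10.3 in Acis cells (SD, n = 3; log2 fold change -1.60, edgeR adjusted p = 1.38e-13). In A2780, H2AC16 and H2BC11 had log2 fold changes of -1.12 and -0.82 (edgeR adjusted p = 1.68e-10 and 1.99e-10). Their counts were also high for their length, with a median of 42.1% of start positions.

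Genes that deposit or exchange the variants were taken from lists, whose counts stand beside 21.2% of all tested genes higher and 28.2% lower in A2780, and 9.35% and 12.4% in Acis cells. Of 7 H3.3 chaperone genes, 1 rose and 4 fell in A2780 and 2 fell in Acis cells (medians -0.27 and -0.13). ATRX, a remodeller that works with DAXX, had log2 fold changes of -0.77 in A2780 and -0.31 in Acis cells (edgeR adjusted p = 1.4e-14 and 1.58e-06). UBN2, a subunit of the HIRA complex, fell by 0.63 in A2780 (edgeR adjusted p = 7.52e-11) and had a log2 fold change of -0.13 in Acis cells (edgeR adjusted p = 0.0985). CABIN1, of the same complex, fell by 0.27 in A2780 and by 0.25 in Acis cells (edgeR adjusted p = 2.09e-05 and 0.000161).

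Of 12 H2A.Z exchange genes, 5 rose and 4 fell in A2780, and 3 fell in Acis cells (medians -0.02 and -0.06). With total counts as the library size, 2 fell in A2780, where 8362 of 15760 tested genes passed, 5302 of them as higher. EP400, an ATPase that loads H2A.Z, fell by 0.51 and 0.38 on the log2 scale in A2780 and Acis cells (edgeR adjusted p = 4.85e-09 and 2.59e-06). INO80, a remodeller, fell by 0.42 and 0.39 (edgeR adjusted p = 2.64e-08 and 1.63e-07). DMAP1, a subunit of the same exchange complexes as EP400, rose by 0.30 in A2780 (edgeR adjusted p = 0.000266) and had a log2 fold change of 0.07 in Acis cells (edgeR adjusted p = 0.647).

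Of 9 genes for modifiers and readers of H2A.X, 1 rose and 7 fell in each line (medians -0.29 in A2780 and -0.19 in Acis cells). The gene that rose was RNF168, a ubiquitin ligase that acts on H2A-type histones at breaks, with log2 fold changes of 0.15 and 0.14 (edgeR adjusted p = 0.016 and 0.0251). The number that rose was 0 in both lines with DESeq2 and with no filter on low counts. In A2780 it was also 0 without A2780 control replicate 2 or A2780 cisplatin replicate 3, and 2 with total counts as the library size. In Acis cells it was also 0 with RLE size factors, with the most alike replicates merged, with the libraries of the 2 groups alone, and without replicate 1 or 2 of Acis control or of Acis cisplatin. PRKDC, ATR and ATM, the kinases that phosphorylate H2A.X at DNA breaks, all passed as lower. PRKDC fell by 0.47 and 0.29 on the log2 scale in A2780 and Acis cells (edgeR adjusted p = 1.61e-14 and 5.05e-10), ATR had log2 fold changes of -0.73 and -0.19 (edgeR adjusted p = 1.57e-12 and 0.00286) and ATM of -0.61 and -0.13 (edgeR adjusted p = 6.1e-12 and 0.0271). The ATM call in Acis cells was lost with DESeq2 (adjusted p = 0.054), with total counts as the library size (edgeR adjusted p = 0.226), with the most alike replicates merged (0.0799), and without Acis cisplatin replicate 1 (0.203) or Acis control replicate 3 (0.143). The histone chaperone FACT has SUPT16H and SSRP1 as subunits, and neither passed in A2780 (log2 fold changes -0.07 and 0.03, edgeR adjusted p = 0.0861 and 0.555). SSRP1 passed there as higher with total counts as the library size (log2 fold change 0.14, edgeR adjusted p = 0.000466) and with a mean of at least 50 counts (0.08, edgeR adjusted p = 0.0253). SUPT16H passed there as lower with no filter on low counts (edgeR adjusted p = 0.0236), without A2780 cisplatin replicate 2 (0.0272) and without A2780 control replicate 1 (0.0404). In Acis cells, SSRP1 fell by 0.10 (edgeR adjusted p = 0.0326), a call that was lost with DESeq2 (adjusted p = 0.0897), with total counts as the library size (log2 fold change -0.04, edgeR adjusted p = 0.355), with the most alike replicates merged (0.0948) and without Acis cisplatin replicate 1 or 2 or Acis control replicate 1 (edgeR adjusted p = 0.091, 0.162 and 0.172). SUPT16H had a log2 fold change of -0.09 in Acis cells (edgeR adjusted p = 0.0761), and it passed with RLE size factors (0.0296), with the libraries of the 2 groups alone (0.0379) and without Acis control replicate 3 (0.0451).

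**Figure D4:**
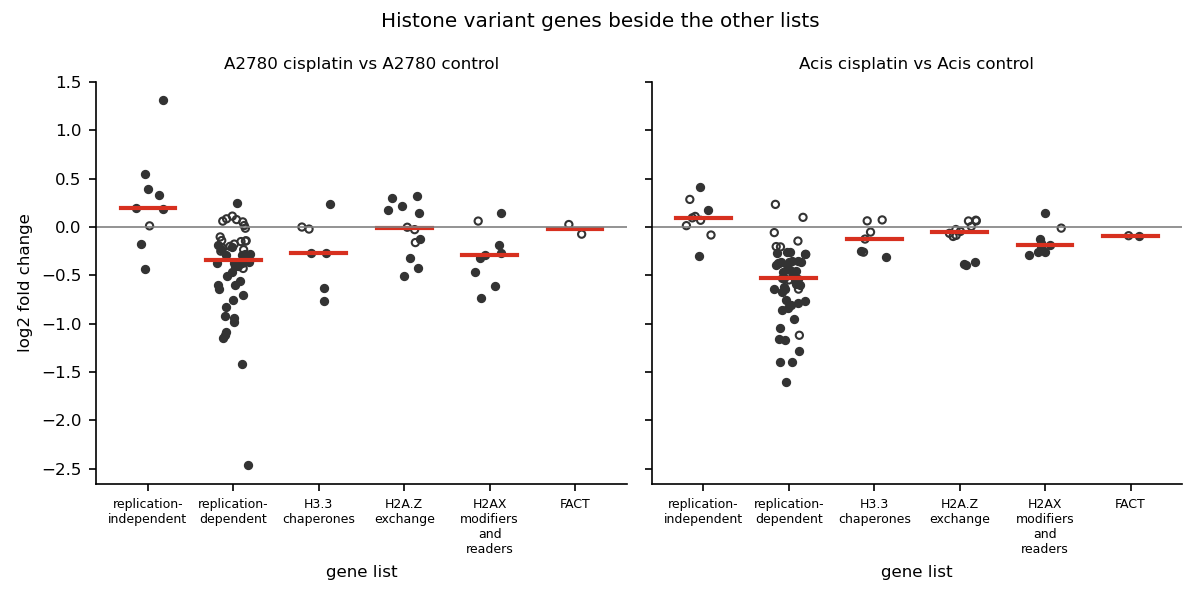
Log2 fold change after cisplatin (y axis) of each tested gene in 6 lists (x axis), in A2780 (left) and Acis cells (right); filled points passed an adjusted p of 0.05, open points did not, and red lines are medians. The replication-independent genes have medians of 0.20 and 0.09, and the replication-dependent genes of -0.34 and -0.53.

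The genes most like H2AJ over the 12 libraries were sought among 9326 genes with a mean of at least 100 counts. They were GADD45B (Pearson r = 0.985), SNHG11 (0.982) and DUSP1 (0.978), as a description over libraries that share the same 4 groups. GADD45B, a stress-induced growth arrest gene, had 237 ± 13.2 and 569 ± 13.1 normalized counts in A2780 control and cisplatin cells, and 304 ± 21.5 and 377 ± 15.1 in Acis control and cisplatin cells (SD, n = 3). DUSP1, which encodes a phosphatase of MAP kinases, had 45.4 ± 5.37 and 291 ± 20.5 normalized counts in A2780, and 70.4 ± 5.38 and 139.7 ± 10.0 in Acis cells (SD, n = 3). All have their highest mean in A2780 cisplatin cells, as H2AJ does.

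Accessible chromatin was listed within 500 bp of the start of 7 of 9 members in A2780 control cells and of 8 in each of the other 3 conditions. Over all tested genes with an annotated start, 69.7%, 70.6%, 63.4% and 67.3% had such a peak, in the order A2780 control, A2780 cisplatin, Acis control and Acis cisplatin. H1-10 had none in any list, and MACROH2A1 none in A2780 control cells. The MACROH2A1 peak in A2780 cisplatin cells (135398259 to 135398892) held 0 of the 250 bases before its start. In both Acis lists the peak there held all 250. The peak at H2AJ was among the weakest, with a fold enrichment over the local background of 7.31 before and 5.95 after cisplatin in A2780, and of 5.44 before and 4.29 after it in Acis cells. It spanned 14773858 to 14774641 on chromosome 12 in A2780 control cells, so it held all 250 bases of the promoter shown, and in Acis cisplatin cells it held 147 of them.

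The peak at H2AX had fold enrichments of 18.4, 14.3, 20.0 and 20.3, and that at H3-3B of 13.5, 9.14, 17.5 and 14.9, in the order given before. The promoters of H2AX, H2AZ1 and H3-3B lay wholly inside a peak in all 4 lists. All 7 members with a peak in both A2780 lists had a lower fold enrichment after cisplatin. In Acis cells, H2AX (19.97 and 20.31) and MACROH2A2 (16.64 and 17.07) were higher after it, and the other members with a peak were lower. The share of all gene starts with a lower value was not counted. The median over all gene starts was also lower after treatment, at 14.8 and 11.7 in A2780 and at 17.15 and 15.97 in Acis cells. Each condition has a single list, which gives no depth of its own, so no difference could be set against replicate error.

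**Figure D5:**
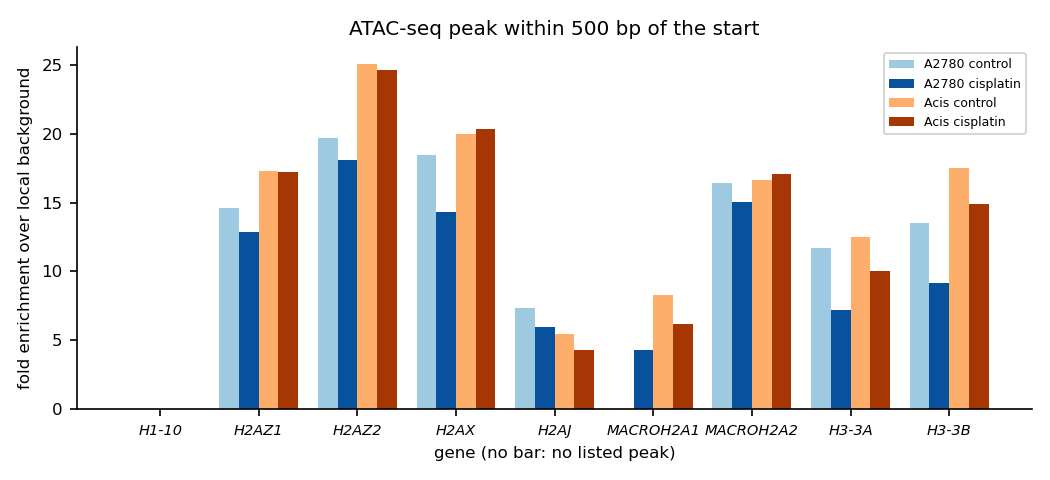
Fold enrichment over the local background (y axis) of the strongest listed ATAC-seq peak within 500 bp of each gene's start (x axis), in the 4 conditions; no bar means no listed peak. H2AZ2 has the highest bars, up to 25.0 in Acis control cells, and H1-10 has none.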

How the data were processed

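RNA-seq libraries were single-end, stranded and depleted of ribosomal RNA. Per the methods of the authors, reads were aligned to hg38 with STAR, duplicates were removed with Picard, and raw counts per gene from htseq-count, set to the strand of the library, were deposited. The annotation used for counting is not given in the sources used here. For ATAC-seq, the authors aligned reads with Bowtie2 2.4.1 and called peaks with MACS2, and kept peaks shared by all replicates of a condition. The deposited values used are the fold enrichment, a ratio to the local background, and the -log10 q of each peak, both as deposited by the authors. XR-seq was not analysed here.

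Raw counts were fitted in R 4.3.3 with edgeR 4.0.16 (TMM factors of 0.965 to 1.05, default filter, 15760 genes, a mean per group over 12 libraries, quasi-likelihood test, Benjamini-Hochberg adjustment over all tested genes). Genes were called at an adjusted p under 0.05. Standard errors were the larger of the quasi-likelihood value and the counting error. For display, counts were divided by their TMM-scaled library size and multiplied by the mean over libraries. DESeq2 1.42.0, other scalings and filters, a replicate block, merged replicates and leaving out each library served as alternatives. The fits were tested on simulated counts, and the exact permutation test on small sets of fixed values. Replicates below counting noise were kept as 3 libraries, and the cause of their low spread was not tested. Gene positions came from GENCODE 44, sequence from GRCh38 and promoters from RefSeq. Exact copies and motifs were found by string search (Python 3.11.15, BLAST 2.17.0 for copies), and plots were drawn with matplotlib 3.10.9. The named genes are the 9 members, at most 3 genes per other list with the smallest adjusted p in A2780, and the 3 genes most correlated with the member that changed most. RNF168 was named in addition, as the gene of its list that rose. The members and lists were chosen with earlier results of these data known.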

Additional observations from a re-analysis of the deposited data

Results flagged for a closer look

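The cisplatin effect differed between the lines for 3 members by edgeR's interaction test over 12 libraries. The difference (Acis minus A2780, log2) was -0.90 for H2AJ, which rose in both lines, -0.19 for H2AX, which passed in A2780 alone, and 0.25 for H2AZ2, which fell in A2780 and had a log2 fold change of 0.07 in Acis cells. With DESeq2, H2AJ alone passed among these 3. Groups of 3 libraries are too small for a test of single outlying libraries.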

How the results depend on the processing

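In A2780, 8 members passed under every alternative, although not always the same ones, since H2AZ2 was replaced by MACROH2A2 with total counts as the library size. All 9 differed between the lines after cisplatin under every alternative. The count in Acis was 6 with total counts as the library size and 2 to 3 without 1 library. The count before treatment was 2 to 4 without 1 library. The count of members whose effect differed between the lines was 1 with DESeq2, 5 with a mean of at least 50 counts and 5 with total counts as the library size, and 2 to 4 without 1 library. Among all genes, the interaction passed for 1349 of 15760 with DESeq2. It passed for 3077 of 10898 with that mean and for 3035 of 15760 with total counts. With total counts as the library size, the share of called genes that were higher went from 42.9% to 63.4% in A2780, from 42.9% to 62.4% in Acis and from 71% to 48.2% for the interaction. The cause of these moves was not tested. Of 675 alternative values of member log2 fold changes, 634 kept their direction and side of the threshold, 18 lost and 14 gained a call, and 9 turned sign, none of them a called value. Those were MACROH2A2 in A2780 (-0.0173 with no filter on low counts, -0.0309 to 0.0507 without 1 library), H2AX in Acis (-0.0033 with DESeq2, -0.0037 with RLE size factors, -0.0119 to 0.0257 without 1 library), and, between the untreated lines, H1-10 (-0.0704 to 0.0591 without 1 library) and H3-3A (-0.1357 to 0.0031). In A2780, SUPT16H turned to 0.0425 with total counts as the library size and SSRP1 to -0.0034 with no filter. Deviations from the group means had correlations of -0.205 to 0.282 between libraries of the same replicate number. These correlations cannot show whether such libraries were handled together. The replicate block left the counts at 8, 3, 3, 9 and 3. The number of members with a peak at the start was 8 or 9 within 1000 bp and 6 or 7 at a -log10 q of at least 50. At this depth, H3-3A and H2AJ, with the fewest counts, had the widest errors.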
